A study of Oryctolagus cuniculus with 8 samples.

Results

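The miR-181 family of the rabbit was followed in extracellular vesicles, the membrane particles that cells shed into body fluids, from the oviduct and the uterus. Its members were taken by name: every mature miRNA called miR-181a, miR-181b, miR-181c or miR-181d, from either arm of its precursor hairpin. There were 10 such names among the 579 of the deposited table, 4 of 5p arms and 6 of 3p arms. Oviductal vesicles were represented by 5 libraries, each a pool of 3 animals, and uterine vesicles by 3 libraries, each a pool of 5. All animals were wild-type California x New Zealand white does that had littered several times. Every doe had received 25 IU of the gonadotropin eCG and, after 48 h, a GnRH analogue (20 µg) that induces ovulation, and tracts were flushed 14 to 15 h after that. There was no untreated group. The flush volume listed was 1 mL for the oviductal and 2.2 mL for the uterine libraries, so organ, pool size and flush volume cannot be told apart. The pools had 30 places for 21 does, so some does must have entered more than 1 pool, and p-values measure the spread between pools that may not be independent. Libraries are named by the number in their title, and uterine replicate 12 carries the number 1 in its library name.

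miRNAs are short RNAs that pair with messenger RNAs through a seed near their 5′ end and reduce their output. The 5p forms of miR-181a, b, c and d share that seed and differ at a few bases elsewhere, so they are held to act on largely the same targets, while the 3p forms come from the opposite arm and have other seeds. The family is best known from lymphocyte development, where miR-181a tunes signalling from the T cell receptor, and from the endothelium, where miR-181b dampens inflammatory signalling. In the RefSeq gene table of the rabbit assembly mOryCun1.1, which is not the OryCun2.0 build of the files, the 6 precursor genes stand in 3 neighbouring pairs. The genes of mir-181a-2 and mir-181b-2 overlap a long non-coding RNA gene and NR6A1, a nuclear receptor gene of germ cells and early embryos. Those of mir-181c and mir-181d overlap NANOS3, an RNA-binding gene of the germ line. The pair of mir-181a-1 and mir-181b-1 overlaps no listed gene, and its nearest protein-coding gene is PTPRC, which encodes the leukocyte surface protein CD45.

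Depth ran from 42684 to 569087 miRNA reads over the oviductal libraries and from 232546 to 479865 over the uterine ones. Oviductal replicates 2 and 3 were the shallowest, where a count of 3 amounts to 63.0 and 70.3 CPM (reads per 1000000 miRNA reads). Epithelial miRNAs (a list of 12 names of miR-200c, miR-141, miR-34b, miR-34c, miR-449a and miR-449b) made up 6.47% to 10.5% of oviductal reads and 0.965%, 5.74% and 2.78% of reads in uterine replicates 12, 3 and 4. Muscle miRNAs (10 names of miR-143, miR-145, miR-1 and miR-133) made up 0.381% to 0.471% of oviductal reads and 2.54%, 0.560% and 4.69% of those uterine reads. Uterine replicate 12 thus had the lowest epithelial share of the 8 libraries.

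The family took a small share of the cargo in both fluids. It held 1953, 143, 146, 849 and 1588 reads in oviductal replicates 1 to 5, and 665, 1149 and 1024 in uterine replicates 12, 3 and 4. As a share of all miRNA reads this came to 0.339% ± 0.0628 (SD, n = 5) in oviductal and 0.292% ± 0.0563 (SD, n = 3) in uterine vesicles. The oviductal libraries ranged from 0.279% to 0.442% and the uterine ones from 0.239% to 0.351%, so the groups overlapped. Of the 7517 reads of the family, 7077 were of 5p arms and 440 of 3p arms.

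Reads were unevenly divided among the 10 names. miR-181d-5p held 50.2% of the family's reads, miR-181a-5p 28.4%, miR-181b-5p 14.8% and miR-181a-2-3p 4.34%. Each of these 4 passed the filter on low counts and was tested. Of the other 6, only miR-181a-3p had a read in every library (60 reads in all). miR-181c-5p had 49 reads, miR-181c-3p 48, miR-181d-3p 5 and miR-181b-3p 1, and miR-181b-2-3p had none. The single read of miR-181b-3p gives it the same 8 counts as miR-105a-2-3p and miR-328-5p, which also had 1 read in that library only. The reads of miR-181a-5p are listed for both of its precursors and differ by 1 between those rows, so the table does not tell which locus they came from. The same holds for miR-181b-5p, with 1115 reads on the row kept and 1089 on the other. Because the 5p sequences are so alike, reads may also be shared between members, and the authors' way of resolving this was not given in the sources used here.

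ocu-miR-181d-5p, the most abundant member, had its uterine CPM inside its oviductal range. Its level was 2251, 1681, 1265, 1795 and 1056 CPM in oviductal replicates 1 to 5. In uterine replicates 12, 3 and 4 it was 1828, 1682 and 1232 CPM. The oviductal mean was 1610 ± 468.0 CPM (SD, n = 5) and the uterine mean 1581 ± 310.3 CPM (SD, n = 3). The highest CPM was in oviductal replicate 1 and the lowest in oviductal replicate 5. After TMM scaling, uterine replicate 3 (2526) stood just above oviductal replicate 1 (2457), so the groups overlapped on either scale but the order changed. It ranked 32nd to 56th among the miRNAs of each library. The log2 fold change, uterine against oviductal and after TMM scaling (a correction for libraries that differ in make-up), was 0.40 ± 0.53 (SE; edgeR adjusted p = 0.811). Its sign followed the scaling and turned to -0.027 with library totals only, a scaling that moved the median of all tested miRNAs from -0.02 to -0.31.

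ocu-miR-181a-5p, the form known from T cells, varied most among uterine pools of the 3 tested 5p members. Oviductal replicates 1 to 5 had 1223, 630.3, 1312, 903.4 and 1251 CPM. Uterine replicate 12 had 129.0 CPM, from 30 reads (95% exact binomial interval 87.0 to 184), uterine replicate 3 had 450.1 and uterine replicate 4 had 1105. Both of the lower uterine libraries fell below every oviductal one, while uterine replicate 4 lay within the oviductal range, so the groups overlapped. After TMM scaling uterine replicate 3 lay within the oviductal range too. The highest uterine level was 8.57 times the lowest, against 2.08 times in the oviductal group. The oviductal mean was 1064 ± 289.7 CPM (SD, n = 5) and the uterine mean 561.5 ± 497.6 CPM (SD, n = 3). The log2 fold change was -0.74 ± 0.64 (SE; edgeR adjusted p = 0.667). Leaving out uterine replicate 12, the library with the lowest epithelial share, gave a log2 fold change of -0.40, and leaving out uterine replicate 3 or 4 gave -0.99 or -1.17. The part of epithelial or muscle content in this was not tested. In vesicles from bulk fluid, fewer vesicles of a cell type and fewer copies per vesicle cannot be told apart.

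miR-181b-5p, the endothelial regulator, was more widely spread in the uterine than in the oviductal pools. Its level was 704.4, 483.2, 656.0, 436.0 and 411.2 CPM in oviductal replicates 1 to 5, and 339.7, 150.04 and 882.2 CPM in uterine replicates 12, 3 and 4. In CPM the uterine values enclosed the oviductal range, with uterine replicate 4 highest and uterine replicate 3 lowest. After TMM scaling uterine replicate 3 was still lowest (225), while oviductal replicate 1 (769) stood above uterine replicate 4 (730.5). The means were 538.1 ± 133.3 CPM for oviductal (SD, n = 5) and 457.3 ± 380.0 CPM for uterine vesicles (SD, n = 3). The log2 fold change was -0.08 ± 0.65 (SE; edgeR adjusted p = 0.978), and it turned to 0.15 with upper-quartile factors.

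ocu-miR-181a-2-3p, the opposite arm of the mir-181a-2 hairpin, had the largest fold change of the family. Oviductal replicates 1 to 5 had 22, 8, 5, 33 and 31 reads, or 49.8, 168.1, 117.1, 129.6 and 54.5 CPM. Uterine replicates 12, 3 and 4 had 129, 23 and 75 reads, or 554.7, 47.9 and 257.4 CPM. Uterine replicates 12 and 4 stood above all oviductal libraries and uterine replicate 3 below all of them, though after TMM scaling it lay within the oviductal range. The oviductal mean was 103.8 ± 50.8 CPM (SD, n = 5) and the uterine mean 286.7 ± 254.7 CPM (SD, n = 3). The log2 fold change was 1.91 ± 0.93 (SE). It did not pass over all miRNAs (edgeR adjusted p = 0.342). With uterine replicate 12 left out it was 0.57 (edgeR adjusted p = 0.952). The share of the muscle list was likewise larger in uterine replicates 12 and 4 (2.54% and 4.69%) than in replicate 3 (0.560%), all above the oviductal libraries, and its part in this result was not tested.

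**Figure D1:**
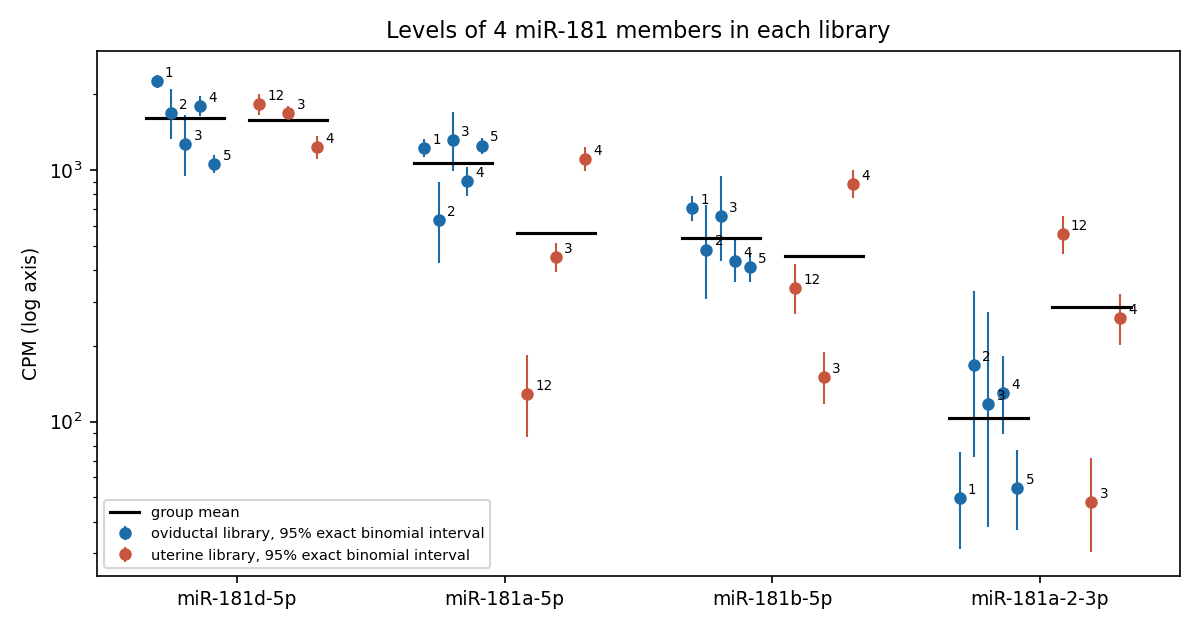
Level in CPM (log axis) of the 4 tested miR-181 members in 5 oviductal (blue) and 3 uterine (red) libraries, numbered as in the text, with 95% exact binomial intervals for counting error only and black lines at the group means. miR-181d-5p kept within 1056 to 2251 CPM in all 8 libraries, while miR-181a-5p reached down to 129.0 CPM in uterine replicate 12.

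The comparison asks which vesicle miRNAs differ between oviduct and uterus. None of the 4 tested members differed past the threshold, an edgeR adjusted p of 0.05, where 3 of all 178 tested miRNAs (1.69%) did. By DESeq2 0 of the 4 passed, against 11 of 178 (6.18%), and by limma-voom 0 of the 4, against 1 of 178 (0.562%). Before adjustment, 0 of the 4 had an edgeR p under 0.05, against 15.7% of all tested, and miR-181a-2-3p came closest at 0.0557. The unadjusted DESeq2 p of miR-181a-2-3p was 0.0245, where 18% of all tested miRNAs were under 0.05, and by limma-voom 0 of the 4 were, against 21.3%. Of the 4 members, 2 had log2 fold changes above 0, as had 48.9% of all tested, and their median was 0.16 beside -0.02 for all. No member separated the groups, while 13.5% of all tested miRNAs had scaled values that did not overlap. These pools cannot show small changes: the SE of the 4 members ran from 0.53 to 0.93 on the log2 scale.

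**Figure D2:**
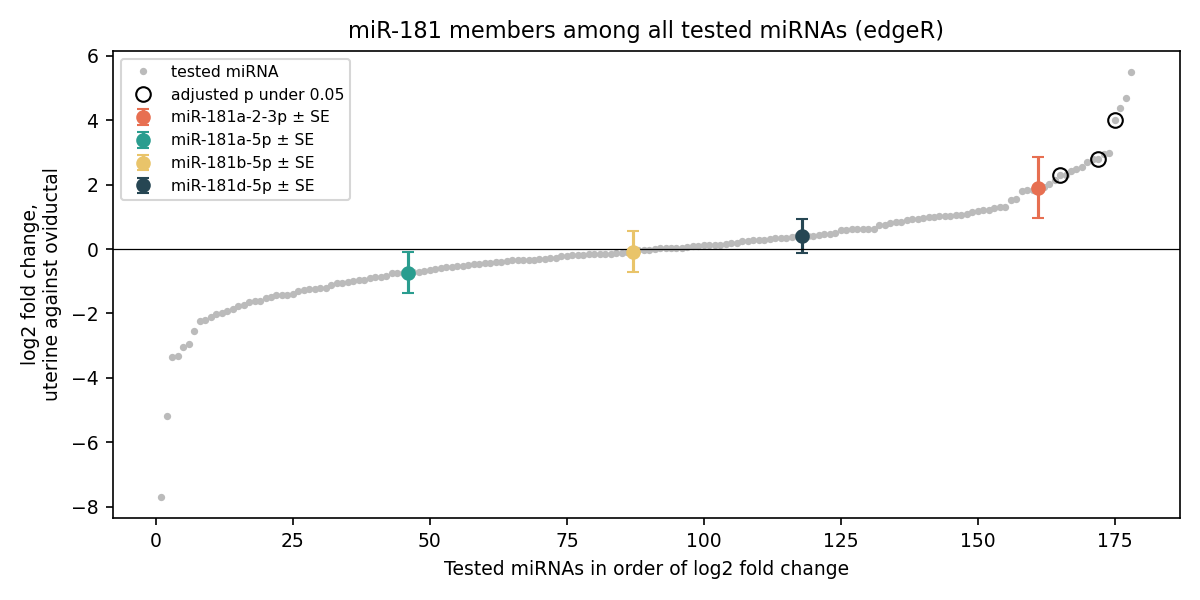
Log2 fold change, uterine against oviductal, of the 178 tested miRNAs in rising order (grey), with the 4 miR-181 members in colour (bars: SE) and circles around the 3 miRNAs past an edgeR adjusted p of 0.05. The members lie between -0.74 and 1.91, and none is circled.

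Although the total was similar, the make-up of the family shifted between libraries. miR-181d-5p made up 47.1% ± 9.03 of the family's reads in oviductal (SD, n = 5) and 56.4% ± 18.8 in uterine vesicles (SD, n = 3). For miR-181a-5p these shares were 31.8% ± 9.61 and 18.3% ± 13.5, and for miR-181b-5p 15.8% ± 2.24 and 14.4% ± 9.67. Without uterine replicate 4 the uterine shares were 11.7% for miR-181a-5p and 9.07% for miR-181b-5p. In uterine replicate 12, miR-181a-5p was only 4.51% of the family's reads and miR-181a-2-3p 19.4%. In every oviductal library the order was reversed, with miR-181a-5p at 21.0% to 44.8% and miR-181a-2-3p at 1.13% to 5.59%. Uterine replicate 3 was the library richest in miR-181d-5p, at 70.2%, and uterine replicate 4 the poorest, at 35.1%. The latter also had the largest share of miR-181b-5p, at 25.1%.

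**Figure D3:**
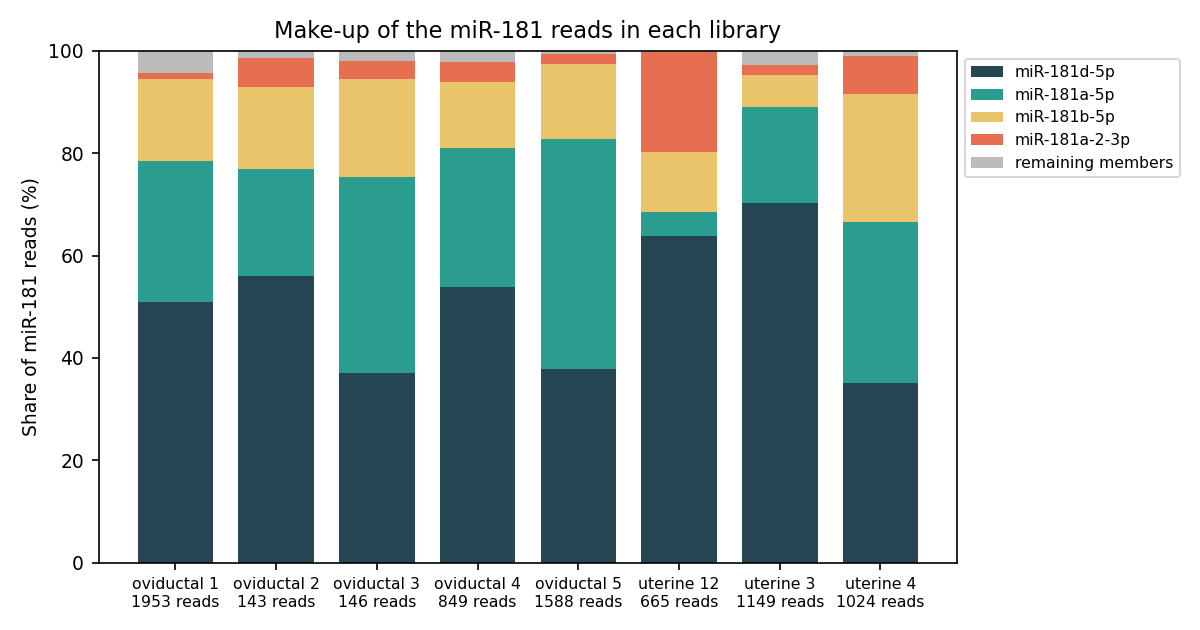
Share of the family's reads (%) taken by each of the 4 leading members and by the remaining members together (grey), for each library, with the family's reads under each bar. miR-181a-5p falls to 4.51% in uterine replicate 12, where miR-181a-2-3p reaches 19.4%.

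Ratios inside a library do not depend on scaling. The log2 ratio of miR-181d-5p to miR-181a-5p reads (pseudocount 0.5) was 0.88, 1.40, -0.05, 0.99 and -0.24 in oviductal replicates 1 to 5. It was 3.80, 1.90 and 0.16 in uterine replicates 12, 3 and 4. Thus 994 reads of miR-181d-5p stood against 540 of miR-181a-5p in oviductal replicate 1, and 425 against 30 in uterine replicate 12. The uterine mean of 1.95 ± 1.82 (SD, n = 3) exceeded the oviductal mean of 0.59 ± 0.71 (SD, n = 5) by 1.36. That difference did not pass an exact two-sided permutation test over 56 assignments (p = 0.214), which cannot go below 0.0357 in this design. Uterine replicates 12 and 3 lay above all oviductal libraries and uterine replicate 4 among them. The difference was 0.43 without uterine replicate 12 (exact permutation p = 0.571) and 2.26 without uterine replicate 4 (exact permutation p = 0.0952). With a uterine library left out the test cannot go below 0.0952, so neither of these could pass 0.05.

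The log2 ratio of miR-181b-5p to miR-181a-5p showed the same library apart. It was between -1.60 and -0.38 in the oviductal libraries, so miR-181a-5p had more reads in all 5. It was 1.38 in uterine replicate 12, -1.58 in replicate 3 and -0.32 in replicate 4. Uterine replicate 12 was the only library of the 8 with more miR-181b-5p than miR-181a-5p. In miR-181d-5p to miR-181b-5p, uterine replicates 3 and 4 had the extremes, at 3.48 and 0.48, with 0.94 to 2.04 in the oviductal libraries.

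The arms of the hairpins were compared as well, since the arm that is kept can differ between tissues. For mir-181a-2 the log2 ratio of 5p to 3p reads was 4.59, 1.84, 3.36, 2.78 and 4.50 in oviductal replicates 1 to 5. It was -2.09 in uterine replicate 12, 3.20 in replicate 3 and 2.09 in replicate 4. Uterine replicate 12 was the only library in which the 3p arm had more reads than the 5p arm, 129 against 30. The difference of the means, uterine minus oviductal, was -2.34 ± 1.25 (SE), with an unadjusted p of 0.0731 and a limma adjusted p of 0.666. It did not pass, and it was -0.77 without uterine replicate 12 and -3.41 without uterine replicate 3. As the 5p reads of both miR-181a loci are counted together, this is not the ratio of a single hairpin. For mir-181a-1, whose 3p arm had 1 to 24 reads per library, the difference was -1.02 ± 1.23 (SE; limma adjusted p = 0.824). That value rested largely on oviductal replicate 5, with 712 reads of the 5p and 1 of the 3p arm: it was -0.15 without that library, and -1.77 without uterine replicate 4. It was -0.64 without uterine replicate 12 and -0.65 without uterine replicate 3. Among all 82 hairpins tested, 0 (0%) passed, and 7.32% had an unadjusted p under 0.05, none of them a miR-181 hairpin. The hairpins of miR-181b and miR-181d met the read minimum too, but their 3p arms had 0 to 5 reads in all, so their ratios only reflect the number of 5p reads.

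**Figure D4:**
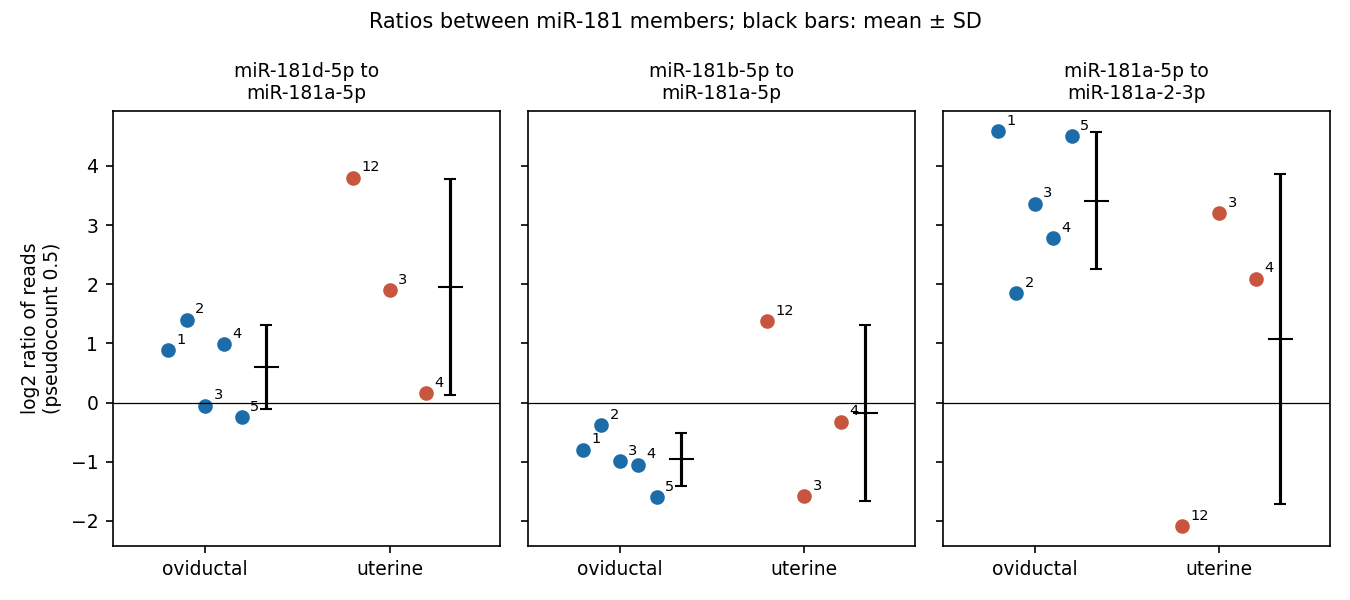
Log2 ratio of reads (pseudocount 0.5) of miR-181d-5p to miR-181a-5p, miR-181b-5p to miR-181a-5p and miR-181a-5p to miR-181a-2-3p in each library, numbered as in the text, with mean ± SD in black. Uterine replicate 12 is the highest library in the first and second panels, at 3.80 and 1.38, and the lowest in the third, at -2.09.

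The 3p arms of the mir-181a loci have separate names, miR-181a-2-3p and, for mir-181a-1, miR-181a-3p. miR-181a-2-3p had 22, 8, 5, 33 and 31 reads in oviductal replicates 1 to 5, against 24, 1, 2, 8 and 1 of miR-181a-3p. In uterine replicates 12, 3 and 4 the numbers were 129, 23 and 75 against 2, 17 and 5. The 3p arm of mir-181a-2 was the more frequent in 7 of 8 libraries, with oviductal replicate 1 as the exception. Counts below 10 in several libraries make single ratios uncertain.

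The miR-181c hairpin was scarce. miR-181c-3p had 34, 1, 0, 7 and 6 reads in oviductal replicates 1 to 5 and 0 in all 3 uterine libraries. In the summed uterine libraries 3 reads, the limit that a count of 0 allows, amount to 2.99 CPM. The pooled oviductal level of 35.4 CPM was 11.8 times that limit. This ratio leaves out the spread between pools and was not tested. Most of the reads came from oviductal replicate 1, and without it the ratio was 5.13. Oviductal replicate 5 stood at 10.5 CPM, where the limit in single uterine libraries was 6.25 to 12.9 CPM. The 5p partner, miR-181c-5p, had 23, 0, 0, 3 and 3 oviductal reads, and uterine replicates 12, 3 and 4 had 0, 14 and 6. The arms therefore did not run in parallel: uterine replicate 3 had 14 reads of miR-181c-5p and 0 of miR-181c-3p. miR-181d-5p, from the neighbouring hairpin, had 359 to 807 reads in the uterine libraries.

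The steadiness of miR-181d-5p was set beside that of all tested miRNAs, a description chosen after its values were seen. The SD of its log2(CPM + 1) over the 8 libraries was 0.36, the third smallest of 178, where the median was 1.42 (1.14 over the 131 miRNAs with a mean of at least 100 CPM). After TMM scaling the SD was 0.63 and the rank 24, so the position depended on the scaling. On library totals the rank ran from 2 to 7 when each library was left out (7 without uterine replicate 3, 6 without uterine replicate 12 or 4, 5 without oviductal replicate 2 or 4). By the same measure on library totals miR-181b-5p had 0.79 and rank 35, miR-181a-5p 1.14 and rank 69, and miR-181a-2-3p 1.24 and rank 81. Without uterine replicate 12 miR-181a-5p had 0.59 and rank 25. After TMM scaling miR-181a-5p had 0.94 and rank 62 over the 8 libraries. The scaled SD of miR-181b-5p was not computed, so its order against miR-181d-5p is given for library totals only. Within the oviductal group the SD was 0.43 (rank 34) for miR-181d-5p, 0.45 (rank 36) for miR-181a-5p and 0.35 (rank 22) for miR-181b-5p. Within the uterine group it was 0.30 (rank 10), 1.55 (rank 90) and 1.28 (rank 73). Among these 5p members miR-181d-5p was thus the steadiest in the uterine pools only, and this on library totals. After TMM scaling it had 2440, 2526 and 1020 in uterine replicates 12, 3 and 4. On that scale miR-181b-5p had 453, 225 and 730.5, and miR-181a-5p had 172, 676 and 915. The SD within groups was not computed after scaling.

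**Figure D5:**
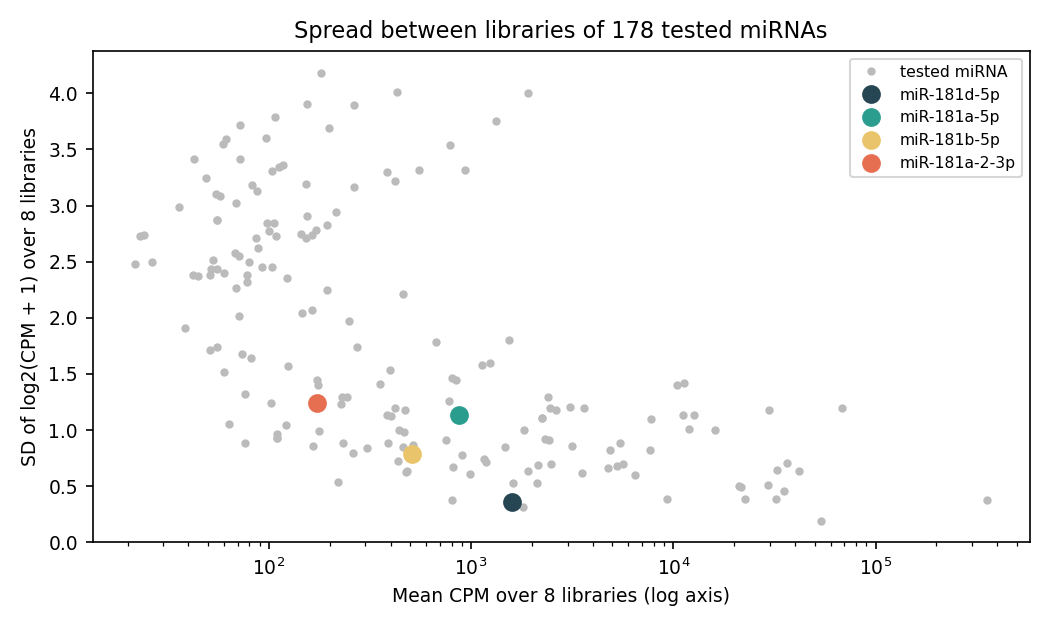
SD of log2(CPM + 1) over 8 libraries against mean CPM (log axis) for the 178 tested miRNAs (grey) and 4 miR-181 members (colour). miR-181d-5p, at an SD of 0.36, lies near the lower edge, and miR-181a-5p is at 1.14.

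The members took different courses across libraries. Pearson's r of log2(CPM + 1) over the 8 libraries was -0.38 between miR-181d-5p and miR-181a-5p and 0.56 between miR-181a-5p and miR-181b-5p. Between miR-181a-5p and miR-181a-2-3p it was -0.59. Spearman's rho of these pairs, in the same order, was -0.48, 0.57 and -0.33. In the last pair uterine replicate 12 had the lowest miR-181a-5p (129.0 CPM) and the highest miR-181a-2-3p (554.7 CPM) of the 8 libraries. The r of these pairs was not computed without that library. These libraries share their totals, so a high level of one miRNA lowers the others, and the values are a description. Most like miR-181a-5p was miR-99a-5p, an abundant miRNA, with r = 0.97 and Spearman's rho = 0.71. Its level was 70927 to 95703 CPM in the oviductal libraries and 8506, 34443 and 82783 CPM in uterine replicates 12, 3 and 4. Next came miR-191-5p (r = 0.95, rho = 0.86) and its opposite arm miR-191-3p (r = 0.93, rho = 0.79). Uterine replicates 12 and 3 were the lowest of all libraries for each of these 3. Without that pair, r was 0.66, 0.58 and 0.44, so the likeness rested in part on them.

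Weaker resemblance was found for miR-181d-5p. The 3 closest were let-7f-5p (r = 0.64, rho = 0.79), let-7g-5p (r = 0.57, rho = 0.62) and miR-148a-3p (r = 0.49, rho = 0.48). Without oviductal replicate 5 and uterine replicate 4, farthest from its median, r was 0.72, -0.010 and 0.29.

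Other miRNAs of the cells in which the family is best known were counted for comparison. Of 14 leukocyte names (miR-142, miR-146, miR-150, miR-155, miR-223 and miR-342), 6 were tested. By edgeR 0 passed in either direction, beside 3 of all 178 tested miRNAs (1.69%). At that share, 0 among so few names says little about a list. Their median log2 fold change was 0.87, beside -0.02 for all tested miRNAs, with 5 above 0 and 1 below. miR-155-5p, a miRNA of activated lymphocytes, had an oviductal mean of 1241 ± 507.9 CPM (SD, n = 5) and a uterine mean of 1107 ± 772.2 CPM (SD, n = 3). For miR-150-5p, of mature lymphocytes, these were 172.9 ± 120.5 and 323.6 ± 357.7 CPM. The leukocyte list summed to 0.129% to 0.251% of oviductal reads and to 0.145%, 0.111% and 0.399% of reads in uterine replicates 12, 3 and 4. miR-142-3p, a defining leukocyte miRNA, had 3, 0, 0, 7 and 25 reads in oviductal replicates 1 to 5 and 0, 0 and 28 in uterine replicates 12, 3 and 4, and miR-142-5p had 0 in all libraries. The largest log2 fold changes of the list were 2.95 ± 1.01 (SE; edgeR adjusted p = 0.134) for miR-146a-5p and 2.71 ± 1.603 (SE; edgeR adjusted p = 0.461) for miR-223-5p. In 7 of 8 libraries, all but uterine replicate 4, the leukocyte list held a smaller share of reads than the miR-181 family.

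Of 9 vascular and erythrocyte names (miR-221, miR-222, miR-451, miR-486 and miR-144), 5 were tested. By edgeR 0 passed, beside 1.69% of all tested miRNAs. Of the log2 fold changes 3 were above 0 and 2 below, with a median of 0.36 beside -0.02 for all. miR-486-5p, of red cells, had an oviductal mean of 1710 ± 731.9 CPM (SD, n = 5) and a uterine mean of 2030 ± 1763 CPM (SD, n = 3). For miR-451-5p, also of red cells, these were 555.9 ± 403.5 and 2096 ± 1525 CPM, and its log2 fold change was 2.16 ± 0.66 (SE; edgeR adjusted p = 0.107). The list summed to 0.189% to 0.442% of oviductal reads and to 0.390%, 0.193% and 1.02% of reads in uterine replicates 12, 3 and 4. Uterine replicate 4, the highest in both lists, was also the uterine library with the most miR-181a-5p and miR-181b-5p, and the part of leukocyte or blood miRNAs in those levels was not tested. Of the epithelial list 8 names were tested and 0 passed, beside the same 1.69% of all tested. Of their log2 fold changes 2 were above 0 and 6 below, with a median of -0.17 beside -0.02 for all. Of the muscle list 4 were tested and 1 was higher in uterine vesicles, miR-143-3p of smooth muscle (edgeR adjusted p = 0.0026). All 4 had log2 fold changes above 0, with a median of 2.33.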

How the data were processed

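Small RNA libraries of vesicles isolated by size exclusion chromatography were sequenced, per the labels' protocols. The deposited table lists, for each miRNA and its hairpin, whole read counts and the authors' RPM, which equalled the count per 1000000 reads of its column (largest difference 0.005). Build OryCun2.0 and FastQC are named in the submitters' processing notes. The aligner and the counter were not given in the sources used here. Of names on several rows (35 of 579), only the row with most reads was used, and CPM were computed over these rows.

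Counts were tested with edgeR 4.0.16 (quasi-likelihood, robust, TMM, filterByExpr, Benjamini-Hochberg over all tested miRNAs), with DESeq2 1.42.0 and limma-voom (limma 3.58.1) as alternatives under R 4.3.3. The SE of an edgeR fold change is its size divided by the root of F. Arm ratios used limma, pseudocount 0.5, for hairpins with at least 10 reads over both arms in every library. The ratio of 2 members was tested by exact permutation. Intervals and floors cover counting error only. The edgeR and limma procedures were run on simulated data as a check of the code only. The simulation took independent libraries and the same dispersion for all miRNAs, unlike pools that may share does. The members, lists and tests were chosen with earlier results of these data known. Named besides the members were the 3 miRNAs most like each of miR-181d-5p and miR-181a-5p and the 2 most abundant of each of the leukocyte and vascular lists; no name of miR-126 was matched. A row with the same counts as a member was named too. miR-142, miR-146a-5p, miR-223-5p and miR-143-3p were named after their values were seen.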

Additional observations from a re-analysis of the deposited data

Results flagged for a closer look

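In 18 measures of the family over the 5 oviductal libraries, 3 had a single library far from the rest, its gap to the next exceeding 0.71 of the whole range. Chance gives this in about 1 in 20 measures of continuous values; where all but 1 library are at 0, as for miR-181b-3p and miR-181d-3p, the gap always equals the range. miR-181c-5p stood at 52.1 CPM in oviductal replicate 1, from 23 reads, with 0 to 3 reads in the other oviductal libraries. miR-181d-3p was seen in oviductal replicate 1 only, at 11.3 CPM from 5 reads. miR-181b-3p was seen in oviductal replicate 3 only, at 23.4 CPM from 1 read.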

How the results depend on the processing

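None of the 4 tested members passed the threshold under any of the 19 alternatives (18 for miR-181a-2-3p, which lacked 10 reads in every library). Their adjusted p ran from 0.153 to 0.998 for miR-181a-2-3p, 0.379 to 0.998 for miR-181a-5p, 0.733 to 0.999 for miR-181b-5p and 0.443 to 0.998 for miR-181d-5p. The log2 fold change of miR-181a-5p stayed below 0 (-1.17 to -0.30) and that of miR-181a-2-3p above 0 (0.21 to 2.26) in all of theirs. That of miR-181b-5p turned to 0.15 with upper-quartile factors, 0.11 with no filter and 0.087 with at least 10 reads in every library, and ran from -0.48 to 0.14 when each library was left out (0.14 without oviductal replicate 1, 0.05 without uterine replicate 3). That of miR-181d-5p turned to -0.027 with library totals and ran from -0.10 (without uterine replicate 3) to 0.77. The number of all miRNAs past the threshold, 3, was 6 with upper-quartile factors, 1 with library totals, 13 with no filter, 8 with at least 10 reads, 11 by DESeq2, 1 by limma-voom, 7 with summed rows and 0 without both shallow oviductal libraries. Leaving out each library gave 1 to 27: 1 without oviductal replicate 2 or uterine replicate 12, and among the remaining uterine pools 27 without replicate 3 and 9 without replicate 4; the cause was not tested. With a replicate block by the number in the title or in the library name it was 0 in both. Only same-numbered pairs inform the group difference in these fits, and such pairs were few, so this 0 says little. The deviations of same-numbered libraries correlated at -0.114 to -0.133, so they were not alike. With so few pairs this cannot tell whether same-numbered pools shared does. The mir-181a-1 arm difference was 0.12 with the block by title number. Arm ratios past the threshold numbered 0 to 3 when each library was left out (1 without oviductal replicate 2, 3 without uterine replicate 4). The difference in the log2 ratio of miR-181d-5p to miR-181a-5p ran from 0.43 to 2.26 over its alternatives, with exact permutation p of 0.0952 to 0.571. With any library left out the smallest possible p lies above 0.05, so those alternatives could not pass and only their effect sizes inform. Summing the repeated rows raised the family's share to 0.438% in oviductal and 0.362% in uterine vesicles and moved the oviductal shares of miR-181a-5p, miR-181b-5p and miR-181d-5p within the family to 42.8%, 21.0% and 32.5%, since miR-181a-5p and miR-181b-5p are then counted on both of their rows. Without miR-148a-3p in the total, the family held 0.495% and 0.522%, so the order of the groups turned. Pearson's r of miR-181d-5p with let-7g-5p turned to -0.010 without 2 libraries, a check added after the data were seen, as were those of spread ranks.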
